A study of Mus musculus with 6 samples.

Results

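The 5 mature miRNAs described here are products of the miR-193 and miR-365 gene clusters, taken by their row names from small RNA counts of exosomes, which are vesicles shed into the culture medium. They are mmu-miR-193b-3p, mmu-miR-193b-5p, mmu-miR-193a-3p, mmu-miR-193a-5p and mmu-miR-365-3p, written below without the mouse prefix, and all 5 had a row among the 1964 mature miRNAs and 16310 RNAs listed. They were chosen with earlier results of these libraries known, so their levels in the groups are a description and carry no p-value of their own. Exosomes of 2 mouse skin cultures were sequenced, epidermal stem cells (ESC exosomes, 3 libraries) and fibroblasts of the dermis (Fb exosomes, 3 libraries). Per the labels' protocols the ESC were rapidly adhering epidermal cells of C57BL/6 mice aged 3 weeks, grown without serum, and the Fb came from db/db mice (diabetic through a leptin receptor mutation) aged 14 weeks and grew in serum, which was withdrawn for collection. As strain, however, the labels give C57BL/6 throughout. Both cell types were used at low passage with no stated treatment, and cell type, age, medium and, by the protocols, the mouse strain changed together, so their parts cannot be told apart. The labels call the samples biological replicates without naming animals or cultures, so the spread given is that between libraries.

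A miRNA gene is transcribed as a hairpin from which a 5p and a 3p arm can be cut, and the arm loaded into an Argonaute protein represses mRNAs that match its seed, bases 2 to 8. The mouse genome has a pair of clusters that each hold 1 miR-193 gene and 1 miR-365 gene. miR-193b and miR-365 are known from mouse brown fat, where they favour fat over muscle differentiation, and from mouse skin squamous carcinoma cells, whose growth they restrain. In human tumour cells miR-193 3p arms repress genes such as MCL1 and cyclin D1, and miR-365-3p also represses cyclin D1. miR-193a-5p is known in human squamous carcinoma cells as a repressor of the p53 relative TP73. The mRNA targets were not measured in these libraries.

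The mature sequences are shown because arms and loci can be told apart only by them, with the seed in capitals (RefSeq, GRCm38.p6, 5′ to 3′):
miR-193b-3p: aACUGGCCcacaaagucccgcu
miR-193a-3p: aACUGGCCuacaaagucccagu
miR-193b-5p: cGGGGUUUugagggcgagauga
miR-193a-5p: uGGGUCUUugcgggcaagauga
miR-365-3p: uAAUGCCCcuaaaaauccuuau
miR-365-1-5p: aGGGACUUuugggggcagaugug
miR-365-2-5p: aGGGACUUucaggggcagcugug
The 3p arms of miR-193b and miR-193a share their seed with each other and with no other of 1679 mature miRNAs compared, and they match at 19 of 22 bases. Counted from the 5′ end, with the base of miR-193b first, they differ by C9U, G20A and C21G, all outside the seed. The 5p arms match at 17 of 22 bases and differ by C1U, G5U, U6C, A11C and G16A, of which G5U and U6C lie in the seed, so the 5p arms of miR-193b and miR-193a have different seeds. The 5p products of the miR-365 genes, which are not among the 5 members, match at 20 of 23 bases and share a seed, with U10C, G11A and A19C between miR-365-1-5p and miR-365-2-5p. miR-365-3p has the same sequence from both genes and a seed found in no other miRNA compared.

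The hairpins of the miR-193 genes, with both mature arms in capitals, show where each arm lies:
Mir193b: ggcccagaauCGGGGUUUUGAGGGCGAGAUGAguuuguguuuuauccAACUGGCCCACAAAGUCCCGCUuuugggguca
Mir193a: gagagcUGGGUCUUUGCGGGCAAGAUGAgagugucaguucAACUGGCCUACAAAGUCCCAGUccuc
Mir193b lies on the plus strand of chromosome 16 at chr16:13449523-13449601 (GRCm38), and Mir365-1 follows on the same strand at chr16:13453840-13453926, with 4238 bases between them. In GENCODE M21 both are inside the span of Gm15738, a gene on the opposite strand, and overlap none of its exons. Mir193a lies on the plus strand of chromosome 11 at chr11:79711969-79712034, and Mir365-2 at chr11:79726400-79726511, with 14365 bases between them. Both are intergenic in GENCODE M21, and the nearest protein-coding gene upstream of Mir193a is Rab11fip4, which ends 13945 bases before it.

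Assigned reads numbered 9894485 to 11149046 in the ESC libraries and 6914504 to 8691350 in the Fb libraries, of which mature miRNAs were 13.3% to 14.7% in the ESC libraries, against 0.613% to 2.05% in the Fb libraries. The 5 miRNAs together had 467 to 611 reads in an ESC library and 24.0 to 125 reads in an Fb library, and Fb replicate 1, with 49019 mature miRNA reads, was the shallowest. Levels are given on 2 scales, CPM of mature miRNA reads and CPM of all assigned reads (reads scaled to 1000000 of the named total), because the miRNA share differed between the groups. The 7 fibroblast and stromal marker miRNAs held 0.0179% to 0.0209% of miRNA reads in ESC and 19.5% to 30.4% in Fb libraries, and the 7 epithelial ones 5.99% to 7.46% in ESC and 0.746% to 1.42% in Fb libraries, so epithelial markers were present in the Fb libraries. The 6 blood-cell markers held 9.57e-05% to 0.00046% in ESC and 0.00365% to 0.0143% in Fb libraries, so they too were higher in every Fb library. The 2 endothelial ones stayed at or below 0.0347% in every library. The 4 skeletal muscle markers held 0.0123% to 0.0161% in ESC and 0.0466% to 0.171% in Fb libraries. Of these markers, miR-142a-3p and miR-133b-3p had 0 reads in every library, miR-223-3p had 0 in every ESC library and miR-150-5p had 0 in every Fb library. The part of the epithelial, blood-cell and muscle traces in the results was not tested. A miRNA in fewer vesicles and fewer copies per vesicle cannot be told apart in such bulk preparations.

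The share of reads by locus, and by arm for both miR-193 hairpins, differed between the exosomes, a description that was not tested. miR-193b-3p had the highest mean CPM of the products in both ESC and Fb exosomes, and its share of miRNA reads overlapped between the groups. The other arm of the same hairpin, miR-193b-5p, was read in every ESC library and in 0 of the Fb libraries, while both miR-193a arms held a larger share of miRNA reads in every Fb library. In the mature miRNA fit (quasi-likelihood test of edgeR over 325 miRNAs, Benjamini-Hochberg adjusted), 3 of the 5 passed an adjusted p of 0.05, where 49.5% of all miRNAs tested did. Of these, 1 was higher in ESC (21.8% of all were) and 2 were higher in Fb exosomes (27.7% of all). All 5 passed the filter on low counts, but miR-193b-5p did so through its ESC libraries alone, and miR-193a-3p and miR-193a-5p through their Fb libraries alone. The 3 that passed the test thus entered it through the group in which they are higher, and nothing is read from their count. On CPM of miRNA reads the groups did not overlap for 3 of the 5, against 60.9% of the miRNAs tested (24.9% with every ESC library higher and 36% with every Fb library higher). As CPM of all assigned reads they did not overlap for 4 of the 5, against 85.2%.

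**Figure D1:**
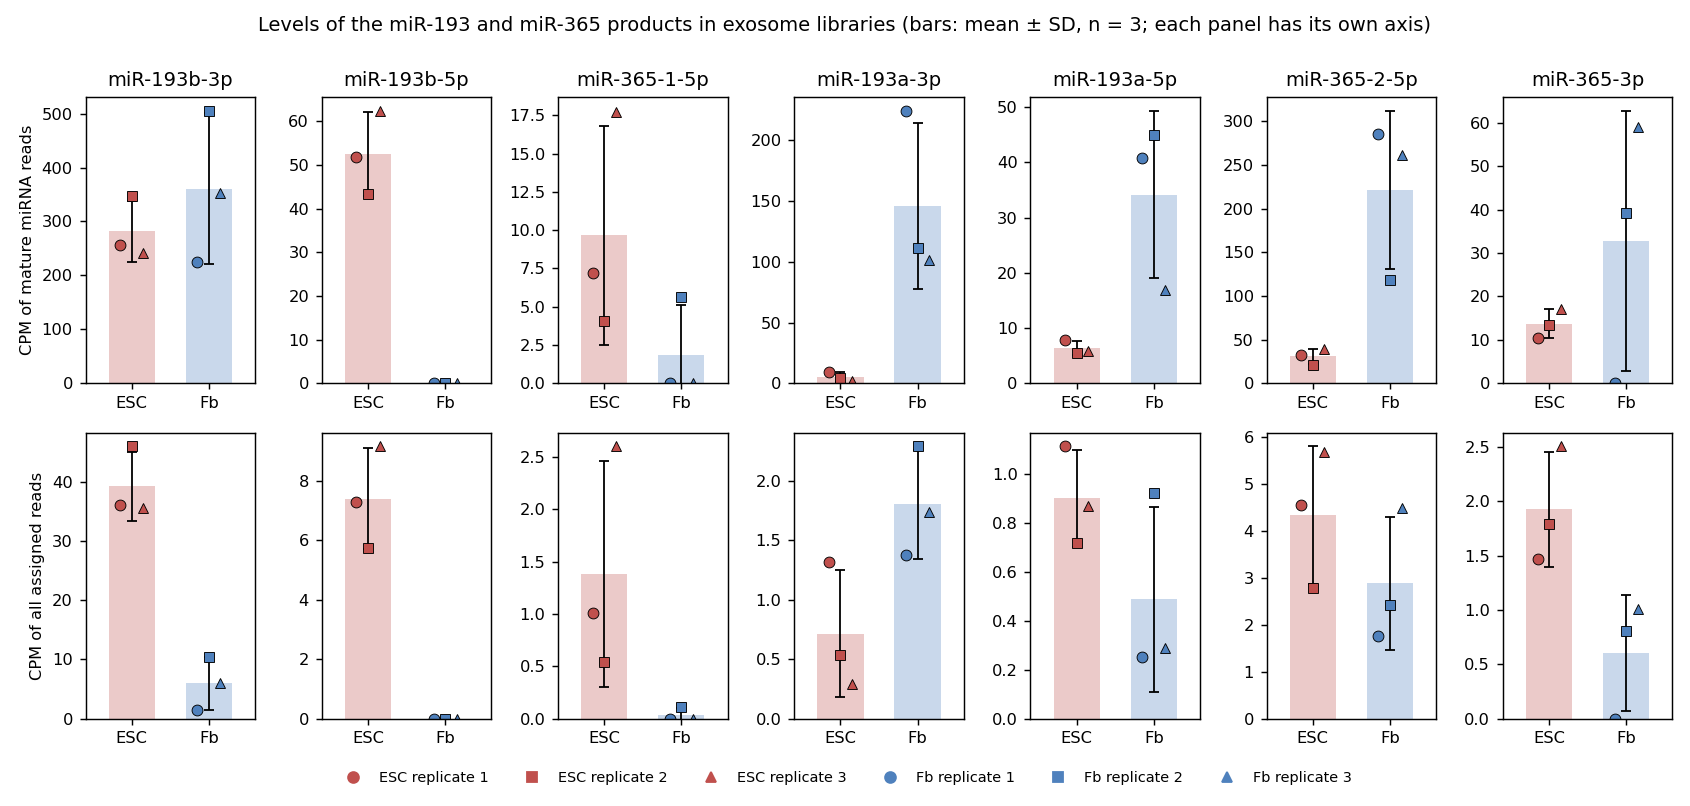
Level of each product in CPM of mature miRNA reads (upper row) and CPM of all assigned reads (lower row), with ESC left of Fb. Points are libraries and bars are means ± SD (n = 3), with lower ends cut at 0. miR-193b-5p is at 0 in every Fb library on both scales, and miR-193a-3p is higher in every Fb library on both scales.

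miR-193b-3p, the arm with known targets such as cyclin D1, had 356, 513 and 369 reads in the ESC libraries, against 11, 89.9 and 41.95 reads in the Fb libraries. These were 256, 347 and 242 CPM of miRNA reads in ESC, against 224, 505 and 353 CPM in Fb exosomes. The Fb values enclosed the ESC values on this scale, with replicate 1 below and replicates 2 and 3 above all ESC libraries. The means were 282 ± 56.8 CPM in the ESC libraries, against 361 ± 141 CPM in the Fb libraries (SD, n = 3 each), and the fitted log2 fold change of ESC over Fb was -0.051 (SE 0.40), which did not pass. It ranked 118th of 980 miRNAs with reads in ESC and 135th of 638 in Fb exosomes. As CPM of all assigned reads it was at 36.0, 46.0 and 35.6 in ESC, against 1.38, 10.4 and 6.07 in Fb exosomes, and every ESC library lay above every Fb library. The ratio of means was 6.61, or 4.78 without Fb replicate 1. On this scale every ESC library was the higher for 74.8% of the miRNAs tested.

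miR-193b-5p had 72.1, 64 and 95 reads in the ESC libraries and 0 reads in each of the 3 Fb libraries. Its levels were 51.8, 43.3 and 62.4 CPM of miRNA reads in ESC exosomes, with a mean of 52.5 ± 9.57 CPM (SD, n = 3). Every ESC library was thus above every Fb library. With Fb set at a floor of 3 reads over the group, 8.68 CPM, the ESC level was 6.05-fold higher, or 5.19-fold higher without Fb replicate 1. The lower limit of the exact 95% counting interval over the group totals was smaller, at 4.89-fold. At the mean ESC level, the miRNA reads of the 3 Fb libraries together would have held 18.1 reads of it. Relative to all assigned reads miR-193b-5p was 58.2-fold higher at that floor, or 38.5-fold higher without Fb replicate 1. The lower limit of the exact counting interval on that scale was 46.7-fold with all Fb libraries. Without any one ESC library it fell below the count filter of the mature miRNA fit.

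miR-193a-3p, which has the seed of miR-193b-3p, had 13, 6 and 3 reads in the ESC libraries and 11, 19.9 and 12 reads in the much shallower Fb libraries. Its levels were 9.33, 4.06 and 1.97 CPM of miRNA reads in ESC, against 224, 112 and 101 CPM in Fb exosomes. All Fb libraries were above all ESC libraries, and replicate 1 was the highest within both groups. The means were 5.12 ± 3.80 CPM in the ESC libraries, against 146 ± 68.3 CPM in the Fb libraries (SD, n = 3 each), with a log2 fold change of -4.31 (SE 0.62). miR-193a-3p was also higher in every Fb library as CPM of all assigned reads, with 1.31, 0.538 and 0.289 in ESC, against 1.38, 2.29 and 1.74 in Fb exosomes. ESC replicate 1 and Fb replicate 1 nearly met there. On that scale every Fb library was the higher for 10.5% of the miRNAs tested.

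miR-193a-5p, the arm with the TP73 link, had 11, 8 and 9 reads in the ESC libraries, against 2, 8 and 2 reads in the Fb libraries. Its levels were 7.90, 5.41 and 5.91 CPM of miRNA reads in ESC, against 40.8, 44.95 and 16.8 CPM in Fb exosomes, so the groups did not overlap. The log2 fold change was -2.03 (SE 0.55), which passed, but the count behind it was only 28 reads over the ESC and 12 over the Fb group. The call was lost without Fb replicate 2 (log2 fold change -1.25), with no count filter (-1.55) and with the replicate number as a block (-1.97). Without any one ESC library, or with a mean of at least 10 reads required, it fell below the count filter. As CPM of all assigned reads the groups overlapped, at 0.899 ± 0.199 in ESC and 0.487 ± 0.376 in Fb exosomes (SD, n = 3 each), and the mean was the higher one in ESC.

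miR-365-3p, which both clusters encode, had 14.6, 20 and 26 reads in the ESC libraries and 0, 7 and 7 reads in the Fb libraries. Its levels were 10.4, 13.5 and 17.1 CPM of miRNA reads in ESC, against 0, 39.3 and 58.9 CPM in Fb exosomes. The Fb libraries lay on both sides of the ESC libraries, and replicate 1 alone was below them. The log2 fold change was -1.12 (SE 0.69) and did not pass, while without Fb replicate 1 it was -1.40 and passed. Over the groups the ratio of ESC over Fb reads was 0.343 per miRNA read (exact 95% counting interval 0.190 to 0.664) and 3.27 per assigned read (1.81 to 6.34). These intervals pool the reads of each group and leave out the spread between libraries, so they are no test of the groups. As CPM of all assigned reads every ESC library was above every Fb library, at 1.92 ± 0.530 in ESC and 0.606 ± 0.535 in Fb exosomes (SD, n = 3 each).

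In the edgeR fit of all RNAs with the same test and adjustment, 4 of the 5 were tested and 1, miR-193b-5p, passed, where 11.8% of 2999 RNAs did and 3.63% did so with the higher level in ESC, 8.17% with the higher level in Fb exosomes. miR-193a-5p fell below its count filter. The log2 fold changes were 0.32 (SE 1.12) for miR-193b-3p, -3.25 (SE 0.97) for miR-193a-3p and -0.12 (SE 1.16) for miR-365-3p. With library totals alone in place of TMM factors the median over all RNAs moved to 0.81, against 0.070, and these became 2.72, -1.33 and 1.67, so that miR-365-3p turned its direction. The call of miR-193b-5p was lost without any one ESC library and without Fb replicate 3, where 0 RNAs passed at all and 560 to 625 had an unadjusted edgeR p under 0.05.

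**Figure D2:**
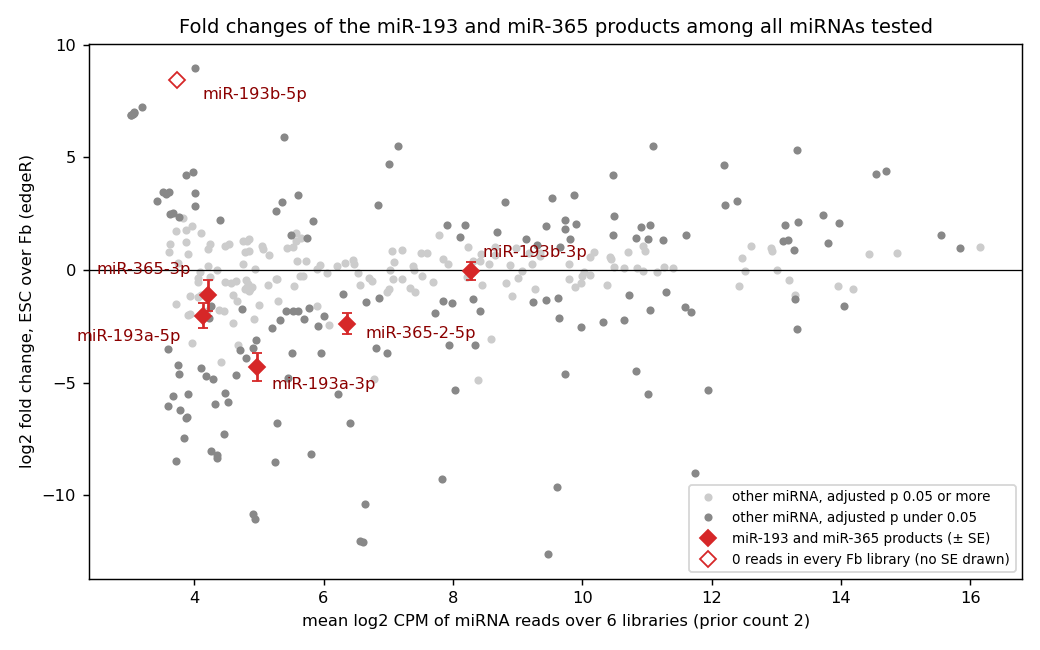
Log2 fold change of ESC over Fb exosomes against the mean log2 CPM for the 325 miRNAs of the mature miRNA fit. The miR-193 and miR-365 products are diamonds with their SE: miR-193b-3p is near 0, miR-193a-3p is at -4.31, and the open diamond of miR-193b-5p is a fitted value with 0 reads in Fb exosomes, which depends on the prior count.

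The remaining arms of the clusters separate the miR-365 genes, which miR-365-3p cannot. miR-365-1-5p, from the chromosome 16 cluster, had 10, 6 and 27 reads in the ESC libraries, against 0, 1 and 0 reads in the Fb libraries. Over the groups its ratio of ESC over Fb was 3.38 per miRNA read (exact 95% counting interval 0.576 to 137) and 32.3 per assigned read (5.50 to 1305). These intervals also leave out the spread between libraries. miR-365-2-5p, from the chromosome 11 cluster, had 45, 31 and 59 reads in the ESC libraries, against 14, 21 and 31 reads in the Fb libraries. That was 30.7 ± 9.01 CPM of miRNA reads in ESC, against 221 ± 90.5 CPM in Fb exosomes (SD, n = 3 each), with every Fb library above every ESC library and a log2 fold change of -2.38 (SE 0.45). As CPM of all assigned reads the groups overlapped, at 4.34 ± 1.47 in ESC and 2.88 ± 1.42 in Fb exosomes. miR-365-2-5p thus lay in the same direction as both miR-193a arms of its own cluster on the miRNA scale, while the 1 Fb read of miR-365-1-5p does not place it on that scale.

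Summed by locus, with miR-365-3p left out, the chromosome 11 cluster gave 13.6%, 7.17% and 12.6% of the reads of both clusters in the ESC libraries, against 71.1%, 35% and 51.7% in the Fb libraries. The groups did not overlap, and the mean was 11.1% ± 3.47 in ESC and 52.6% ± 18.0 in Fb exosomes (SD, n = 3 each). The exact 95% binomial intervals over the group totals were 9.46% to 12.5% of 1697 reads in ESC and 39.6% to 51.9% of 265 reads in Fb exosomes. The Fb share over these reads was 45.7%, or 41.4% without Fb replicate 1. This ratio is within a library, so neither scale enters it.

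**Figure D3:**
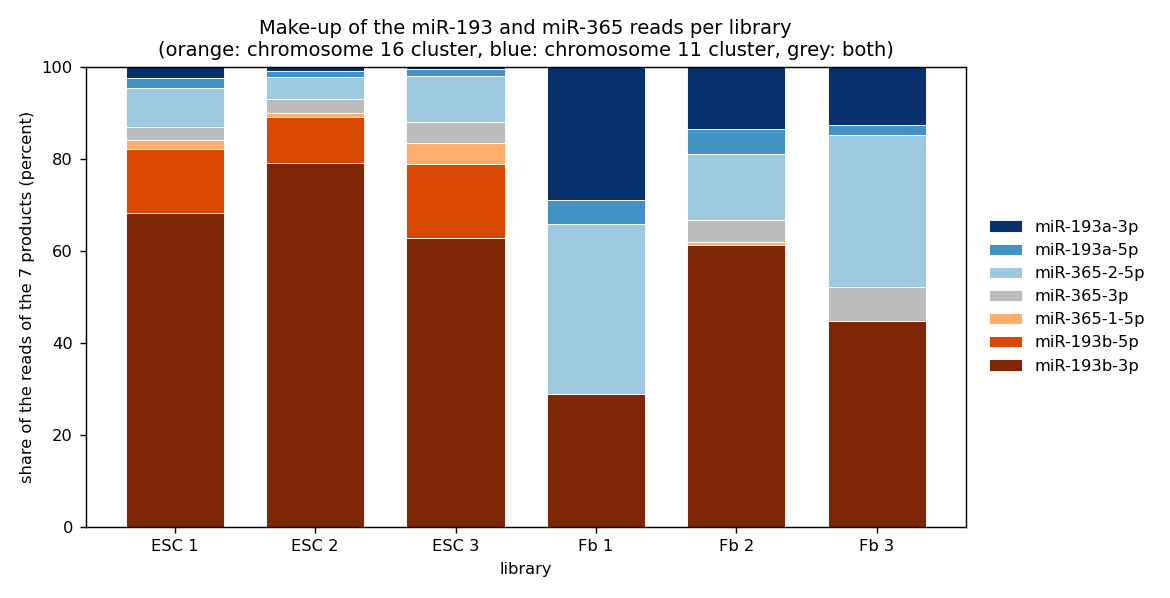
Share of each product in the reads of all 7 products per library, in percent, with chromosome 16 products in orange, chromosome 11 products in blue and miR-365-3p, encoded by both, in grey. miR-193b-3p makes up 62.8% to 79.2% of the ESC libraries and 28.9% to 61.3% of the Fb libraries, and the blue part is larger in every Fb library.

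Between the miR-193 paralogs, miR-193a-3p made up 3.52%, 1.16% and 0.806% of the reads of both 3p arms in the ESC libraries, against 50.0%, 18.2% and 22.2% in the Fb libraries. The highest ESC library, at an exact 95% binomial interval of 1.89% to 5.95%, lay below the lowest Fb library, at 11.5% to 26.7%. Fb replicate 1 stood apart from the other Fb libraries with equal numbers of both arms, on 22 reads in all. Among the 5p arms miR-193a-5p held 13.3%, 11.1% and 8.65% in the ESC libraries and all 12 reads of the Fb libraries, so miR-193b-5p outnumbered it in every ESC library and was outnumbered in every Fb library. The 3p arms of the paralogs differ at 3 bases only, so reads cut short or with an error could be divided between them. Of the 5 values, 0 in Fb replicate 1 and 1 to 3 in each other library were fractional.

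Between the arms of one hairpin, miR-193b-5p was 16.8%, 11.1% and 20.5% of the miR-193b reads in the ESC libraries. In the Fb libraries it was 0 of 11, 0 of 90 and 0 of 42 reads. The exact 95% binomial interval over these 143 reads reached up to 2.55%, against 13.9% to 17.7% over the 1469 ESC reads. These intervals cover counting error only, and ESC replicates 2 and 3 lay outside the ESC interval. In Fb replicate 1 alone the interval reached 28.5%, above the ESC shares, so its 0 reads do not set that library apart from ESC. For miR-193a the 5p arm was 45.8%, 57.1% and 75.0% of reads in the ESC libraries, against 15.4%, 28.6% and 14.3% in the Fb libraries. Each share rested on 12 to 28 reads. The exact 95% intervals of ESC replicate 1, 25.6% to 67.2%, and replicate 2, 28.9% to 82.3%, overlapped those of all Fb libraries. That of ESC replicate 3, 42.8% to 94.5%, overlapped those of Fb replicates 1 and 2 and met that of Fb replicate 3. Over the group totals the intervals were 41.3% to 70.0% of 50 reads in ESC and 11.8% to 35% of 55 reads in Fb exosomes. ESC replicate 3 lay above the ESC interval, which again covers counting error only. In point values the 5p share was thus larger in every ESC than in every Fb library for both hairpins. For miR-193a the intervals of single libraries do not separate the groups. For miR-365 the 5p products were 64.9% to 78.6% of the reads of both arms in the ESC libraries and 75.9% to 100% in the Fb libraries. By these counts the 5p arms outnumbered miR-365-3p in all libraries. Reads of miR-365-3p match both genes, and how reads with several matches were divided is not given. Its count against other products may therefore be too low.

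**Figure D4:**
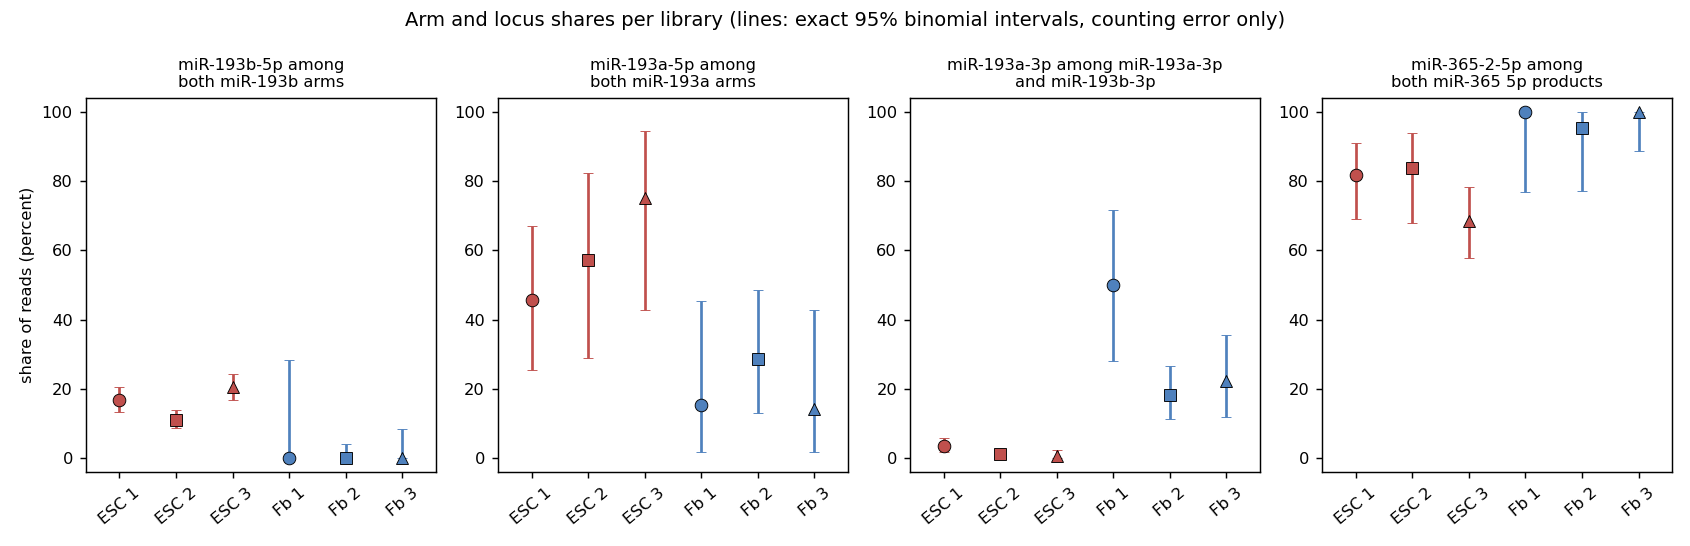
Share of reads per library, in percent, for 4 pairs of products, with exact 95% binomial intervals that cover counting error only. miR-193b-5p and miR-193a-5p have the larger share of their hairpin's reads in the ESC libraries, and miR-193a-3p and miR-365-2-5p the larger share of their pair in the Fb libraries.

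Pairs of products were also compared within each library, over all 6 libraries, which does not use the comparison of ESC with Fb. The mature forms are 22 bases long, so reads stand for equal lengths. The log2 ratio of miR-193b-3p over miR-193b-5p averaged 4.28 ± 2.28 (SD, n = 6; 0.5 added to each count) and was positive in 6 of 6 libraries (exact two-sided sign-flip permutation p = 0.03125, adjusted exact permutation p = 0.0781 over the 5 pairs). With 0 reads of miR-193b-5p in the Fb libraries, the Fb ratios of this pair are set by the added count. Any read of miR-193b-3p makes them positive. The mean was 3.79 with 1 added and 5.43 with 0.1 added. It joins 2.41 ± 0.53 in ESC with 6.14 ± 1.5 in Fb exosomes (SD, n = 3 each), so it describes neither group. The raw p is the smallest that 6 libraries allow, and after adjustment the threshold of 0.05 was not met. Over 5 pairs that smallest p can meet the threshold only if most of the pairs reach it. Missing the threshold is therefore not read as a result. miR-365-3p was below miR-193b-3p in 6 of 6 libraries, with a mean log2 ratio of -3.94 ± 0.830 (SD, n = 6; exact permutation p = 0.03125, adjusted exact permutation p = 0.0781). This ratio has the same limit, that reads of miR-365-3p match both of its genes. miR-193b-3p over miR-193a-3p averaged 3.61 ± 2.71 (SD, n = 6) and was positive in 5 of 6 libraries and 0 in Fb replicate 1 (exact permutation p = 0.0625, adjusted exact permutation p = 0.104). For miR-193a-3p over miR-193a-5p the mean was 0.70 ± 1.50 (SD, n = 6; exact permutation p = 0.3125, adjusted exact permutation p = 0.391), with 4 of 6 libraries positive. For miR-193b-5p over miR-193a-5p it was 0.030 ± 3.29 (SD, n = 6; exact permutation p = 1, adjusted exact permutation p = 1). That mean joins 2.97 ± 0.338 in ESC with -2.91 ± 1.02 in Fb exosomes (SD, n = 3 each), so it describes neither group. The mean of miR-193a-3p over miR-193a-5p likewise joins -0.53 ± 0.845 in ESC with 1.93 ± 0.580 in Fb exosomes, and that of miR-193b-3p over miR-193a-3p joins 5.92 ± 1.05 in ESC with 1.30 ± 1.15 in Fb exosomes (SD, n = 3 each).

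Unprocessed hairpins and neighbouring RNAs were looked up as well. The 4 hairpin rows of the clusters held 0.222 reads or fewer in every library, so nearly all reads of the clusters were assigned to mature arms. The libraries were size-selected on a gel and the counter is not given. These rows therefore do not show how much unprocessed hairpin the exosomes held. Neighbouring long non-coding RNAs were chosen by position after the first results were seen. Gm11205, 6548 bases upstream of Mir193a, had a mean of 1.05 ± 0.337 CPM of all assigned reads in ESC, against 10.8 ± 5.71 in Fb exosomes (SD, n = 3 each). Every Fb library was above every ESC library. In the edgeR fit of all RNAs its log2 fold change was -5.61 (SE 1.22). It passed there, where 8.17% of RNAs did with the higher level in Fb exosomes. Gm15738, opposite Mir193b and Mir365-1, had 28.1, 35.9 and 35.9 CPM in the ESC libraries, against 26.9, 6.77 and 10.1 CPM in Fb exosomes. Its ratio of means was 2.28, or 3.96 without Fb replicate 1, and it depends on the scale. With tRNA genes left out of the total the ratio was 1.35 and the groups overlapped, and the log2 fold change of Gm15738 in the edgeR fit of all RNAs was -0.041 (SE 0.68), which did not pass. Whether counting used the strand is not given in the sources used here, so Gm15738 reads are uncertain where other genes overlap it.

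By the likeness of log2 CPM over the 6 libraries (Pearson's r with each of the 324 other miRNAs of the fit, given as a description, since the libraries fall into the 2 groups and share depth), the nearest patterns differed by arm. Nearest to miR-193b-5p were miR-182-5p, miR-298-5p and miR-183-5p (r = 0.997, 0.997 and 0.996). These were at 106000, 2581 and 20450 CPM of miRNA reads in ESC exosomes, against 6853, 1288 and 1092 CPM in Fb. With 0 Fb reads, the Fb values of miR-193b-5p are set by the prior count, so r reflects mainly the step between the groups and not its size. Nearest to miR-193a-3p were miR-218-1-3p, miR-410-3p and miR-381-3p (r = 0.996, 0.992 and 0.991), which were at 0.943, 2.11 and 0.479 CPM of miRNA reads in ESC exosomes, against 68.6, 92.5 and 62.2 CPM in Fb. miR-193a-5p was nearest to miR-22-3p, miR-5121 and miR-218-1-3p (r = 0.972, 0.940 and 0.928). miR-193b-3p was nearest to miR-3102-3p, miR-30b-5p and miR-15b-3p (r = 0.968, 0.958 and 0.956), and miR-365-3p to miR-29c-3p, miR-130a-3p and miR-3074-2-3p (r = 0.995, 0.986 and 0.969).

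Other miRNAs known from brown and beige fat, the setting in which the miR-193b cluster is best known, were also looked up. Of 15 listed, 13 were tested in the mature miRNA fit, of which 4 passed with the higher level in ESC, 4 with the higher level in Fb exosomes and 5 did not pass. Over all miRNAs tested 21.8% passed with the higher level in ESC and 27.7% with the higher level in Fb exosomes, so the list's counts are near those of any miRNA. Their median log2 fold change was -0.26, against -0.11 over all miRNAs tested. On the ESC side the largest folds among the abundant ones were those of miR-182-5p (log2 fold change 4.37, SE 0.27) and of miR-203-3p (log2 fold change 3.08, SE 0.61), also an epithelial marker. On the Fb side they were those of miR-455-5p, with 0.239 ± 0.415 CPM of miRNA reads in the ESC libraries, against 131 ± 18.9 CPM in the Fb libraries, and miR-133a-3p, also a muscle marker, with 6.33 ± 4.63 CPM in the ESC libraries, against 127 ± 139 CPM in the Fb libraries (SD, n = 3 each). The log2 fold change of miR-133a-3p was -3.55 (SE 0.97).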

How the data were processed

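Small RNA libraries of 3 ESC and 3 Fb exosome preparations, grouped by their titles, were analysed from estimated counts that the authors deposited for each small or other non-coding RNA. FastQC, cutadapt and GRCm38 are named in the submitters' processing notes. For the aligner, the counter, the strand setting and how reads with several matches were divided, nothing is given in the sources used here. Per the labels' protocols, libraries were made with a CleanTag kit and size-selected on a gel.

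Expected counts were rounded for the count models. Mature miRNAs, and separately all RNAs, were fitted with edgeR 4.0.16 in R 4.3.3 (TMM factors; filterByExpr at its minimum count 10 and total 15; group as the only term; threshold at an adjusted p of 0.05). A positive log2 fold change means higher in ESC exosomes. Fits were tested on simulated data. Pairs were compared by exact sign-flip permutation in Python 3.11.15, and intervals are exact Clopper-Pearson (scipy 1.17.1). Without molecular identifiers, intervals and the floor of 3 reads cover counting error only. Sequences and positions are from RefSeq (GRCm38.p6; all 7 products matched) and GENCODE M21, both on the build named for the files.

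The members and lists were chosen with earlier results of these data known. Named besides the members were the other products of the same hairpins, the 3 miRNAs with the highest r for each member, and of the fat list the 2 largest folds per direction that passed with a mean of at least 100 CPM. Alternatives were DESeq2 1.42.0, other factors, filters and library sizes, the replicate block, other pseudocounts and leaving out each library. The comparison of the miR-365 5p arms, the values without Fb replicate 1 and DESeq2 on all RNAs were added after the data were seen.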

Additional observations from a re-analysis of the deposited data

Results flagged for a closer look

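Within a library, miR-193b-5p outnumbered miR-193a-5p in every ESC library and was outnumbered in every Fb library. The log2 ratios were 2.66, 2.92 and 3.33 in ESC, against -2.32, -4.09 and -2.32 in Fb exosomes, with a mean of 0.030 over all 6. The difference between the groups was not tested, and the Fb values rest on 2, 8 and 2 reads of miR-193a-5p and 0 reads of miR-193b-5p.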

How the results depend on the processing

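In the mature miRNA fit 161 miRNAs passed, and 12 of 14 alternatives stayed within 1.5 times that count. Leaving out one library gave 103 to 213, with 107 without ESC replicate 3 and 103 without Fb replicate 3. DESeq2 gave 189. The fitted log2 fold change of miR-193b-3p lay between -0.39 and 0.57 and did not pass in any of them. Library totals alone moved the median of all miRNAs to -0.52, with 52 calls higher in ESC and 103 in Fb exosomes, against 71 and 90. In the fit of all RNAs 354 passed, against 541 by DESeq2 and 0 to 589 when one library was left out (589 without Fb replicate 1, and 0 without any one ESC library or Fb replicate 3). The cause was not tested. The deviations of same-numbered ESC and Fb libraries from their group means had r from -0.259 to -0.11. Differently numbered libraries had r from -0.274 to 0.36. With 3 libraries per group these values cannot decide whether a replicate number marks anything shared. With the replicate block 114 miRNAs and 179 of all RNAs passed.

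The log2 ratio of mean CPM, ESC over Fb, depends on the total used, since the miRNA share differs. Per miRNA read it was -0.36 for miR-193b-3p, -4.83 for miR-193a-3p, -2.42 for miR-193a-5p and -1.26 for miR-365-3p. Per assigned read these were 2.72, -1.33, 0.89 and 1.67, and with tRNA genes left out of the total 2.43, -1.80, 0.53 and 1.38. The sign turned for all but miR-193a-3p.

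The mean log2 ratio of miR-193b-5p over miR-193a-5p was -1.01 with 0.1 added to each count and -0.63 to 0.85 when one library was left out. The other 4 pairs kept their sign and stayed above an adjusted permutation p of 0.05 in all alternatives. With 5 libraries the exact p cannot go below 0.0625. The low Fb depth limits the products with few reads.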
